A study of Homo sapiens with 7 samples.

Results

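Windows of 250 kb that lie inside genes but whose array probes are poor in G and C were selected, so that gene content and base composition could be set against each other as companions of replication timing. Selection used only the array's annotation and no measured signal. Autosomal windows with 8 or more probes were kept, at least 80% of the probes had to name a gene, and the mean GC of the probe sequences had to fall in the lowest 10% of all such windows. In all, 434 of 9064 windows met the rule (4.79%), with 7848 probes, of which 7344 named a gene. Names were taken as the array gives them, transcript identifiers included. With only RefSeq-matched names counted as genes, 225 windows met the rule. A member window held 8 to 32 probes, with a median of 19. The 434 members formed 392 runs of adjacent windows, so most stood alone. Of the 919 windows in the lowest 10% of GC, 47.2% were inside genes by this rule, against 50.0% of all windows, so low probe GC by itself hardly changed the share of windows inside genes.

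The arrays came from K562, a chronic myeloid leukaemia line that grows in suspension, and U2OS, an adherent osteosarcoma line. Growing cells of both lines had taken up the thymidine analogue bromodeoxyuridine (BrdU) at 50 µM for 2 h, and 80000 fixed cells had been sorted by DNA content, which splits S phase into its early and its late portion. The labels name no drug, genotype or time course that would separate the groups. Newly made DNA of the early (Cy3) and of the late cells (Cy5) was hybridised to the same two-colour array after BrdU immunoprecipitation and whole-genome amplification. The groups were K562 after a new cell sorting method (1 array), K562 after the old method (1 array), U2OS labelled manual (2 arrays), U2OS labelled automated (2 arrays) and K562 on an array labelled 44k (1 array). What was done by hand or by machine is not in the labels, nor whether the arrays of a group came from separate cultures. P-values therefore measure only the spread between arrays, which may be technical.

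Replication timing is the order in which stretches of the genome are copied during S phase. Early domains are known to be rich in active genes, in G and C and in open chromatin, whereas late domains are gene-poor, AT-rich and often held at the nuclear lamina. Because genes and G+C go together along human chromosomes, their shares in timing are hard to separate, and AT-rich stretches that are nevertheless inside genes are where they part. Long introns of giant genes are a known example, and such genes are late in many cell types.

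The label "GC-poor" was checked against the probes and holds only in a narrow sense. Over all 161223 autosomal probes, GC averaged 36.5% with an SD of 2.55, and over windows the mean was 36.5% with an SD of 0.848. A window entered the lowest 10% at 35.6% or below, the middle range used for comparison ran from 36.3% to 36.6%, and the highest 10% began at 37.4%. Member windows ranged from 28.3% to 35.6% GC, with a median of 35.3%. The measure is therefore the composition of the probes chosen for the array and not that of the whole window. The GC of whole windows was not computed. Probe GC also varied along a chromosome: chromosome 19 had the highest mean probe GC of all autosomes (37.4%) and also the largest share of its windows among the members (19 of 212, 8.96%). Of these 19 members, 13 lay between 20 and 24 Mb, with a median probe GC of 33.9%. Promoters of member genes were not AT-rich. Over RefSeq promoter sequences (GRCh38.p14), the median GC was 62.2% in 353 members with a matched promoter, 61.3% in 753 windows inside genes of middle GC and 62.5% in 6755 windows overall. Shorter probes were rarer among the members, since 3.62% of their probes were under 60 nucleotides, against 8.24% of all probes.

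The probes below show what low GC means here. The first 3 come from the 3 earliest member windows, the next 3 from the 3 latest, then 1 each from the window that was most earlier and the window that was most later in K562 than in U2OS, and the last from the chromosome 19 zinc finger cluster. Each is the probe as listed in the deposited tables, 60 nucleotides long, with G and C in capitals and positions on build hg19.
DNAH17, chr17:76548807-76548866: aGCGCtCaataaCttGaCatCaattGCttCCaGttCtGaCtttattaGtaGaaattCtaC
SWAP70, chr11:9762304-9762363: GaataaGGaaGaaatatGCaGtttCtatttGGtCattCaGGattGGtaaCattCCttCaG
X83299, chr5:68760306-68760365: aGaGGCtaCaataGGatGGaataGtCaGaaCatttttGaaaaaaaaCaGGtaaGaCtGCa
C4orf37, chr4:98537526-98537585: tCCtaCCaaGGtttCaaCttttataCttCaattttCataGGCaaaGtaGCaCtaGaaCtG
AGBL4, chr1:50340278-50340337: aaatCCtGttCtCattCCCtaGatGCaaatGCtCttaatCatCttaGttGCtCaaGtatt
LRRIQ3, chr1:74552033-74552092: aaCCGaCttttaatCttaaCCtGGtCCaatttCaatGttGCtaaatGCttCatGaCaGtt
IPO11, chr5:61833003-61833062: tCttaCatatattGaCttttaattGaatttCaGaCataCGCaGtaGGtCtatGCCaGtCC
ITGB6, chr2:161019063-161019122: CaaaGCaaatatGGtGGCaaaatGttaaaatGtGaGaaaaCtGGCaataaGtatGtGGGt
ZNF826P, chr19:20591370-20591429: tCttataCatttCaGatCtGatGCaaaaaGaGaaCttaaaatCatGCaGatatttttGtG
By GC share most of these could not be told apart: all but the ZNF826P probe are 35.0% GC. They come from windows at opposite ends of the timing scale, all of which the rule had already restricted to low GC. Each is only 1 probe of its window, so their equal GC is an illustration and not a result. The ZNF826P probe is 28.3% GC.

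Timing is given as log2(early/late), the log2 ratio of early to late signal after each array was centred on its median autosomal probe, so that positive values are earlier than that probe and negative values later. The early control named in the labels, BMP1, lay in a window at 1.22 (new sorting) and 1.15 (old sorting) in K562 and at 0.97 ± 0.14 in U2OS (SD, n = 4). The late control, DPPA2, lay in a window at -2.89 and -1.22 in K562 and at -2.01 ± 0.34 in U2OS (SD, n = 4). The spread of window values differed most between the K562 arrays: the quartiles of all windows lay at -2.50 and 1.21 (new sorting) and at -1.28 and 0.97 (old sorting). On the 4 U2OS arrays the lower quartile lay between -1.71 and -1.35 and the upper at 1.07 to 1.09, so the new-sorting array had the widest spread. Brightness also differed. Between 35.0% (second manual U2OS array) and 91.5% (first automated U2OS array) of probes were well above background in both channels of the 6 larger arrays. Over member probes, the scanner software had replaced a signal at or below background by a surrogate value for 12.98% (old-sorting K562) and 14.8% (second manual U2OS), against 1.20% and 0.99% for the automated pair. Ratios of such probes are bounds rather than measurements.

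At the lowest GC, windows inside genes replicated earlier than gene-poor windows on every array. In K562 the member medians were -0.36 (new sorting) and -0.07 (old sorting). In U2OS they were -0.37 and -0.28 (manual) and -0.53 and -0.59 (automated). The 103 windows of the same GC in which 20% or fewer of the probes named a gene had medians of -2.80 and -1.04 in K562, of -1.63 and -1.78 in manual and of -2.24 and -2.03 in automated U2OS. The highest gene-poor median thus lay below the lowest member median. Between 42.4% and 48.6% of members were above 0, depending on the array, against 6.80% to 16.5% of the gene-poor windows. The members themselves sat only a little below the genome as a whole, whose medians ran from -0.11 to 0.08.

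**Figure D1:**
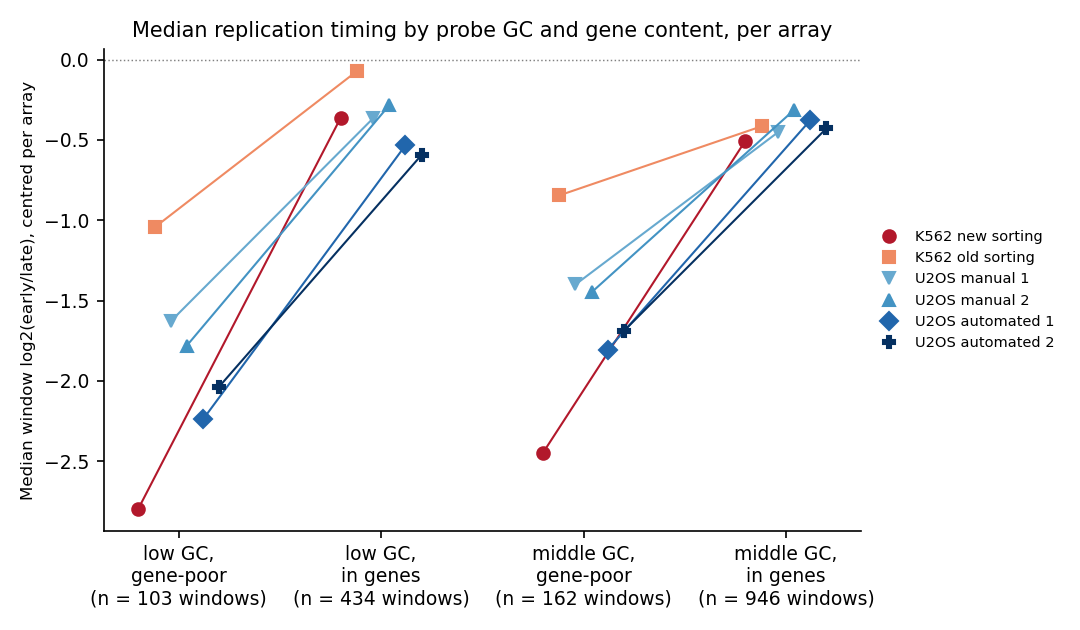
Median log2(early/late) of 4 classes of 250-kb windows (y axis, centred per array) on each of the 6 larger arrays, shown by symbol and colour; lines join the gene-poor and the genic class of equal GC on an array. Every line rises: low-GC windows inside genes lay between -0.59 and -0.07 and low-GC gene-poor windows between -2.80 and -1.04, while both genic classes sat at about the same height.

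The difference between members and gene-poor windows of equal GC was 2.43 and 0.97 on the K562 arrays, 1.26 and 1.496 in manual U2OS and 1.71 and 1.44 in automated U2OS. Its mean was 1.55 ± 0.50 (SD, n = 6), with members earlier on 6 of 6 arrays (exact two-sided sign-flip permutation test over the arrays of both lines, p = 0.03125, the smallest that 6 arrays allow; Benjamini-Hochberg adjusted p = 0.0375 over 6 tests). On the array labelled 44k, where 422 members and 59 of the gene-poor windows were measured, the difference was 1.46. Only 9.13% of that array's probes were well above background in both channels, and 49.2% held a surrogate value. Many of its ratios are thus bounds, here and below. At middle GC the same contrast, of 946 windows inside genes with 162 gene-poor windows, was 1.94 and 0.43 in K562, 0.95 and 1.13 in manual U2OS and 1.43 and 1.26 in automated U2OS (mean 1.19 ± 0.50, SD, n = 6; exact p = 0.03125, adjusted p = 0.0375). The low-GC contrast averaged 1.70 over the K562 arrays and 1.48 over the U2OS arrays, a difference that did not exceed the spread between arrays (exact permutation test, two-sided p = 0.733, smallest possible 0.0667). The size, but not the direction, depended on the background: the low-GC contrast was 0.74 with normexp correction of the raw intensities and 0.59 with none. Without the new-sorting K562 array it was 1.38 and without the old-sorting array 1.67. Gene-poor windows also carried fewer probes (median 10 against 19 in members), and the part of probe number in the contrast was not tested.

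In the lower part of the GC range, the contrasts between windows of lowest and middle GC were smaller than the gene contrasts. Windows inside genes of middle GC, compared with the members, differed by -0.14 and -0.34 on the K562 arrays, by -0.09 and -0.03 in manual U2OS and by 0.16 and 0.16 in automated U2OS. The values fell on both sides of 0 (mean -0.05 ± 0.19, SD, n = 6; exact sign-flip p = 0.594), and without the old-sorting K562 array the mean was 0.01. With every probe required to name a gene (mean -0.30) and with RefSeq-matched names (mean -0.24), middle-GC windows were later on every array (exact sign-flip p = 0.03125 each). Outside genes, middle-GC windows were earlier than low-GC windows on 6 of 6 arrays, by 0.35 and 0.20 in K562, 0.23 and 0.33 in manual U2OS and 0.43 and 0.35 in automated U2OS (mean 0.32 ± 0.09, SD, n = 6; exact p = 0.03125, adjusted p = 0.0375). This call was lost in 500-kb windows (mean 0.058, exact p = 0.156) and with RefSeq-matched gene names (mean 0.11, exact p = 0.0625), where the lowest array fell to -0.06 and -0.12. On the same arrays, the GC contrast inside genes was smaller than the low-GC gene contrast on 6 of 6, by 1.28 to 2.58. The mean of the difference was -1.60 ± 0.49 (SD, n = 6; exact sign-flip p = 0.03125, adjusted p = 0.0375). The member median enters both contrasts, with opposite sign. The gene contrast spans the ends of the range of gene share, whereas the GC contrast stops at the middle of the GC range. This p-value is therefore no test of genes against base composition.

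The upper part of the GC range gave another picture. With all windows ranked into 10 equal groups by probe GC, those inside genes showed no rise over groups 1 to 6. The mean of the array medians in K562 was -0.20 in group 1, of lowest GC, -0.22 in group 2, -0.35 in group 3, -0.50 in group 4, -0.46 in group 5 and -0.40 in group 6. In U2OS it was -0.44, -0.48, -0.37, -0.34, -0.45 and -0.31 in the same groups. In K562 and U2OS it then climbed to -0.06 and 0.16 in group 7, 0.49 and 0.38 in group 8, 0.60 and 0.78 in group 9 and 0.79 and 1.09 in group 10. Gene-poor windows stayed late throughout, at -1.92 in both lines in group 1 and at -1.82 in K562 and -0.99 in U2OS in group 10, which held only 21 such windows. The highest 10% inside genes were earlier than the members by 1.33 and 0.68 in K562, 1.41 and 1.19 in manual U2OS and 1.71 and 1.81 in automated U2OS (mean 1.36; exact sign-flip p = 0.03125 over 6 arrays). Over that range, the GC contrast minus the gene contrast was -0.20 (exact sign-flip p = 0.5), again with the member median in both terms. This wider contrast was chosen after seeing the data. In group 10 inside genes, 30.2% of probes were under 60 nucleotides, against 3.76% in group 1, and the part of probe length was not tested.

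The share of gene-naming probes did not rise with timing all the way. Among low-GC windows, the mean of the array medians was -1.92 in K562 and -1.92 in U2OS at 20% or less, -0.50 and -1.04 at over 20% to 50%, and -0.06 and -0.09 at over 50% to under 80%. It reached 0.33 and -0.02 in the 232 members with 80% to under 100% of gene-naming probes and then fell back to -0.86 and -0.82 in the 202 members at 100%. The low-GC windows in which every probe named a gene were thus later than those at 80% to under 100%, on every array. Of the fully genic members 38.1% named a single gene, against 12.9% of those at 80% to under 100%. Middle-GC windows had the same turn, from 0.32 and 0.28 at 80% to under 100% to -1.30 and -1.05 at 100%, where 52.7% named a single gene.

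**Figure D2:**
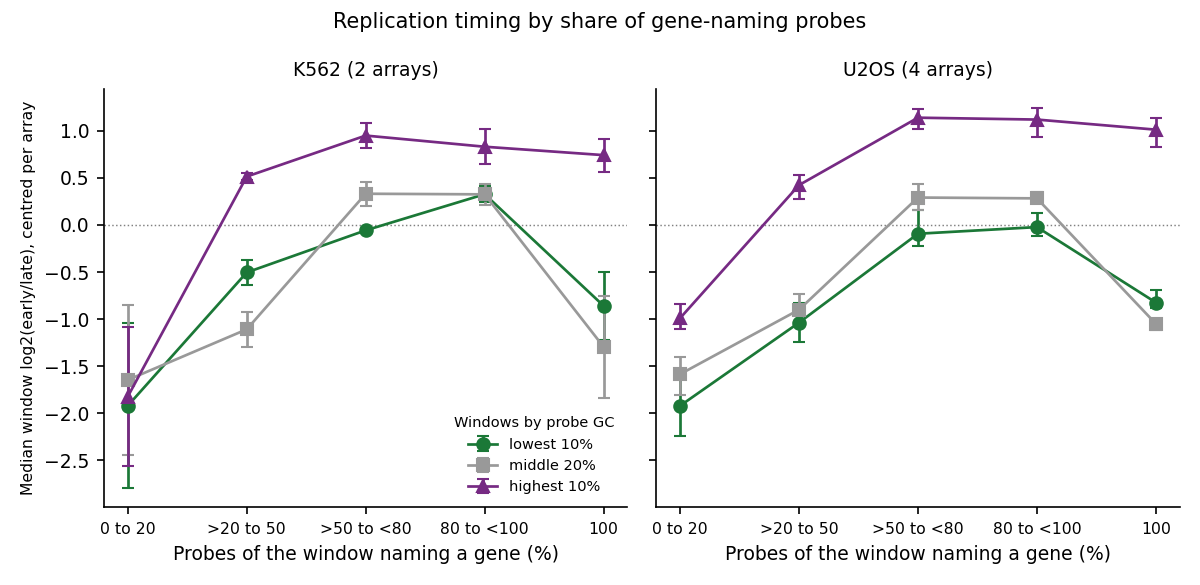
Median log2(early/late) of windows (y axis) against the percentage of their probes that name a gene (x axis), for windows of the lowest 10%, middle 20% and highest 10% of probe GC, in K562 (left, mean of 2 array medians) and U2OS (right, mean of 4); bars span the lowest and highest array. Both the lowest and the middle GC curves climb from gene-poor windows, the middle one levelling off from over 50%, and drop at 100%; the highest GC curve stays above 0.7 from over 50% onward.

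The number of different gene names in a window, which the rule did not use, went with large differences in timing among the members. Each name counted as 1 gene, transcript identifiers included, so a gene listed under several names could count more than once. Members naming 1 gene (107 windows, 97 different genes) had medians of -2.59 and -1.37 in K562, -1.57 and -1.62 in manual U2OS and -2.06 and -1.89 in automated U2OS. Members naming 3 or more genes (248 windows) had medians of 0.84 and 0.68 in K562, 0.47 and 0.65 in manual U2OS and 0.44 and 0.30 in automated U2OS. No array brought the groups' medians near each other. The difference was -3.42 and -2.04 in K562 and ran from -2.50 to -2.04 over the 4 U2OS arrays (mean -2.41 ± 0.52, SD, n = 6; single-gene members later on 6 of 6 arrays, exact sign-flip p = 0.03125, adjusted p = 0.0375), and it was -1.78 on the array labelled 44k. With normexp correction the mean was -1.33, and with no background correction -1.05. The rise was stepwise. As means of the array medians, members naming 2 genes (79 windows) stood at -0.48 in K562 and -0.60 in U2OS, those naming 3 to 4 (139) at 0.47 and 0.21, and those naming 5 or more (109) at 0.95 and 0.77. Median probe GC in these groups lay between 35.2% and 35.4%, a narrow range set by the rule, which kept members at 35.6% or below. Probes under 60 nucleotides averaged 1.69% with 1 gene and 6.01% with 5 or more, and the part of probe length was not tested. The median probe number stayed between 18 and 20.

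Single-gene members mostly named a long gene or transcript. The probes of the named gene spanned a median of 563 kb over the whole array, from 154 to 1773 kb. The shortest spans were below the window size of 250 kb, so not every such window lies wholly inside its gene. Of the 107 single-gene members, 86 were late in both lines (mean below 0) and 7 were early in both. Over all 434 members, the span of the gene with most probes and the timing had a Spearman correlation of -0.41 in K562 and -0.44 in U2OS. This is a description across windows, which are not independent and share their arrays.

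**Figure D3:**
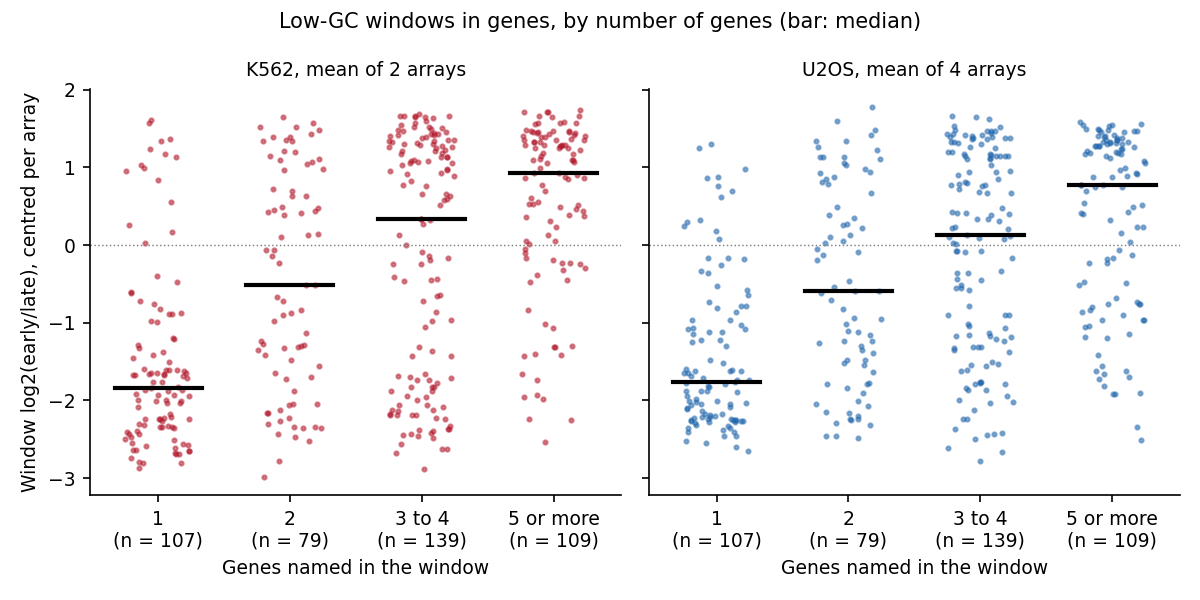
Each point is a low-GC window inside genes, placed by the number of genes it names (x axis) and by its log2(early/late) (y axis), as the mean of 2 K562 arrays (left) or 4 U2OS arrays (right); bars are medians of these means. The bars rise in every step, from -1.83 to 0.93 in K562 and from -1.77 to 0.78 in U2OS, while single windows of every group reach both the early and the late end.

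Matching windows for gene number changed how GC compared. Members less often held a single gene than middle-GC windows inside genes did (24.7% against 36.8%). Among windows naming 5 or more genes, middle-GC windows were earlier than the members on 6 of 6 arrays, by 0.13 to 0.40 (mean 0.28), and among those naming 3 to 4 genes by 0.13 to 0.29 (mean 0.24). With 1 gene they were earlier on 5 of 6 arrays (mean 0.21), and with 2 genes on 2 of 6 (mean -0.31). The highest 10% of GC stood above the members by a mean of 0.52 with 1 gene, 1.12 with 2 and 0.80 with 3 to 4, each on 6 of 6 arrays. With 5 or more genes the gap was 0.18, on 4 of 6 arrays and negative on both K562 arrays. These matched differences were computed after the other results were known and carry no test. The largest of these mean gaps, 1.12, was smaller in size than the mean difference of -2.41 between single-gene members and those naming 3 or more genes.

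As shares of the variance of window timing over all 9064 windows, probe GC alone accounted for 2.20% to 7.65%, depending on the array, and the share of gene-naming probes for 2.51% to 4.34%. Both in a linear fit gave 4.41% to 11.2%. With the gene share as the 5 classes above, which allow for the drop at 100%, it alone gave 6.60% to 11.7%. That exceeded GC on each of the 6 arrays, but GC entered as 1 linear term and not as classes. With 1 linear term each, GC gave more than gene share on new-sorting K562 (3.80% against 3.72%) and first manual U2OS (5.47% against 4.14%). The same held on the automated arrays (7.45% against 4.34% and 7.65% against 4.25%). GC gave less on old-sorting K562 (2.20% against 2.51%) and second manual U2OS (3.91% against 4.09%). The number of gene names, as log2 of the count plus 1, gave 19.6% to 30.5%, and adding GC to it raised this only to between 19.7% and 31.3%. The number of probes in a window, which is itself higher where genes are dense, gave 9.16% to 14.6%. Among the 434 members alone, timing had a Spearman correlation with GC of 0.02 to 0.04 over the 6 arrays, with the number of genes of 0.42 to 0.49 and with the number of probes of 0.17 to 0.24. The rule confined member GC to the lowest 10% but left the number of genes free, so these correlations are not on equal terms. Over all windows inside genes, the correlation of timing with GC was 0.11 to 0.29. Windows share arrays, depth and neighbours, so these values describe and carry no p. Timing went with the surroundings as well: the number of genes in the 4 windows on each side had a Spearman correlation with member timing of 0.41 in K562 and 0.51 in U2OS, and their GC of 0.31 in both. Of the members, 400 had flanks above the low-GC limit, with a median flank GC of 36.3%. Since that limit marks the lowest 10% of windows, most flanks lie above it by the rule. The share over all windows was not computed.

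The earliest members held several genes each. The first, at chr17:76500001-76750000, covers CYTH1, an exchange factor for ARF GTPases, and DNAH17, an axonemal dynein heavy chain. It read 1.81 and 1.496 on the K562 arrays, 1.87 and 1.52 in manual U2OS and 1.66 and 1.61 in automated U2OS. The next, at chr11:9750001-10000000, covers SBF2, of the myotubularin family, and SWAP70, a signalling protein of B cells that acts on Rac. It read 1.64 and 1.68 in K562 and 1.79, 1.83, 1.48 and 1.38 in U2OS. Both were early on all 6 arrays, and the lines overlapped. The others were windows with OCLN, the tight-junction protein occludin (1.60 in K562 as the mean of 2 arrays, 1.65 ± 0.46 in U2OS, SD, n = 4, on only 8 probes), with CDC5L, a splicing factor (1.67 and 1.55 ± 0.32), and with UBE2B, a ubiquitin-conjugating enzyme, beside PPP2CA, the catalytic subunit of protein phosphatase 2A (1.67 and 1.54 ± 0.40).

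The latest members were mostly inside a single long gene. C4orf37, at chr4:98500001-98750000, read -3.72 and -1.65 in K562, -2.52 and -2.82 in manual U2OS and -2.76 and -2.31 in automated U2OS. AGBL4, a carboxypeptidase gene that spans 1473 kb on the array, read -3.52 and -1.95 in K562 and -2.61, -2.46, -2.61 and -2.49 in U2OS at chr1:50250001-50500000. Both were late on all 6 arrays, with the old-sorting K562 array nearest 0. CADPS2, which primes vesicles for secretion, also filled its window alone (-2.87 in K562, -2.25 ± 0.45 in U2OS, SD, n = 4). The remaining members among the 5 latest name several genes: LRRIQ3 with FPGT-TNNI3K (-2.43 and -2.78 ± 0.49) and ZBBX with WDR49 and SERPINI2, a serpin (-2.67 and -2.45 ± 0.32).

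Gene groups fell on different sides of the scale. Of the genes of adhesion in neurons on the list used (125 on the array), 26 fell in 16 member windows, 12 of them in a single protocadherin window (-0.24 in K562, -0.90 in U2OS). These windows had medians of -1.87 in K562 and -2.21 in U2OS; 13 were late in both lines and 0 were early in both. NLGN1, a synaptic adhesion protein, read -2.37 in K562 and -2.61 ± 0.30 in U2OS (SD, n = 4), and CDH6, a cadherin, -2.47 and -2.45 ± 0.21. The 2 earliest were ODZ4, a teneurin (1.52 and -0.95 ± 0.27), and the far end of CNTNAP2, a neurexin relative (-0.45 and 0.03 ± 0.60). Ion channels and neurotransmitter receptors (14 genes in 15 windows) had medians of -1.99 and -1.98, with 12 windows late and 2 early in both lines. The kainate receptor gene GRIK2 read -2.21 and -2.41 ± 0.16, and the calcium channel subunit gene CACNA2D3 -2.50 and -2.002 ± 0.09. The early ones shared their window with other genes: TRPM7, a cation channel with a kinase domain that is widely expressed, at 1.67 and 0.94 ± 0.43, and KCNJ4, beside DMC1 and DDX17, at 0.90 and 1.31 ± 0.21. The only olfactory receptor window, OR8U8, was late in both lines (-2.24 and -2.28 ± 0.20).

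Genes of DNA repair, cohesin, ubiquitin and general upkeep were the early counterpart at the same low GC. Of 185 on the array, 33 lay in 34 member windows, with medians of 1.09 in K562 and 0.73 in U2OS; 23 windows were early and 3 late in both lines. REV3L, the catalytic subunit of a translesion polymerase, read 1.56 and 1.20 ± 0.08, and UBE2K, a ubiquitin-conjugating enzyme, 1.37 and 1.38 ± 0.29. ATM, the kinase that answers double-strand breaks, lay in a window at 1.38 and 1.18, and RB1, the retinoblastoma gene, at 0.57 and 0.33. The 2 latest were SMC6, of the SMC5/6 complex, at -1.42 and -1.61 ± 0.31, and FANCM, a helicase of the Fanconi pathway, at -0.29 and -1.04 ± 0.45. These windows named a median of 4 genes, against 1.5 in the neuronal adhesion windows and 2 in the channel windows. Over all members, 156 of 434 (35.9%) were early and 196 (45.2%) late in both lines, against 40.2% and 41.6% of all windows. The lists were drawn up with earlier results of these data known, so their direction is a description.

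Zinc finger genes combined many genes with late timing. Their 28 windows held 64 such genes, named a median of 4.5 genes each and had medians of -1.14 in K562 and -1.06 in U2OS, with 21 late and 2 early in both lines. The 2 earliest were ZFP106 (1.65 and 1.43 ± 0.25) and ZNF207, a spindle-assembly protein gene (1.29 and 1.32 ± 0.26). The 2 latest were both windows inside ZNF804B, at -2.50 and -2.41 ± 0.37 and at -2.39 and -2.24 ± 0.18. The cluster of KRAB-type repressors on chromosome 19 supplied 13 members between 20000001 and 24000000, of which 12 name a zinc finger gene. All 13 were late in both lines, with medians of -2.25 and -1.17 on the K562 arrays, -1.05 and -0.89 in manual U2OS and -1.29 and -1.20 in automated U2OS. Zinc finger genes share sequence with each other, so signal at their probes may come in part from relatives. Without chromosome 19 the low-GC gene contrast was 1.67. By chromosome, all 9 members of chromosome 17 were early in both lines, and 23 of the 34 on chromosome 4 were late in both.

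**Figure D4:**
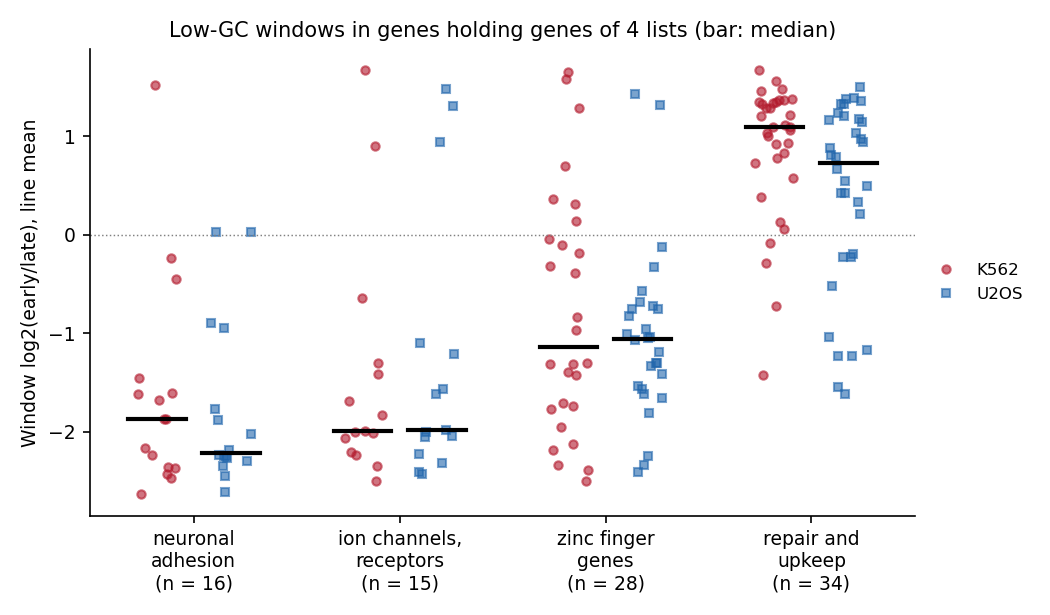
Log2(early/late) of low-GC windows inside genes (y axis) that hold a gene of each of 4 lists (x axis), as the mean of 2 K562 arrays (circles) and of 4 U2OS arrays (squares); a bar marks each median. Windows of neuronal adhesion genes and of channels and receptors gather near -2, those of repair and upkeep genes near 1, and zinc finger windows spread between.

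Between the lines, members changed about as often as any window. K562 differed from U2OS in 100 of 434 members, or 23.04% (limma, a difference of 1 or more with an adjusted p under 0.05), against 22.6% of all windows. Of these, 53 were earlier in K562 (12.2%, against 9.75% of all windows) and 47 later (10.8%, against 12.9%), and these differences between shares were not tested. The arrays of the lines did not overlap in 44.9% of members, against 46.2% of all windows. The count rested on the K562 arrays: without the old-sorting array 160 members (36.9%, background 35.9%) were called, of which 33.75% were earlier in K562, and without the new-sorting array 125 (28.8%, background 27.2%), of which 68% were earlier in K562. The direction of most calls thus turned with the K562 array left out. In either fit K562 is a single array, and the spread comes from U2OS alone. With normexp correction 51 members (11.75%, background 10.8%) were called, 37.3% of them earlier in K562, and without dim probes 40 of 293 (13.65%, background 13.4%), 75% of them earlier in K562. Of the 100 called members, 58 had line means of opposite sign. By list, 1 neuronal adhesion window was earlier and 1 later in K562, 0 and 1 of the channel and receptor windows, 5 and 3 of the zinc finger windows, and 5 and 1 of the repair and upkeep windows. Member timing in the lines had a Pearson correlation of 0.73 across the 434 windows, against 0.74 across all windows, both as a description. The 2 K562 arrays differed in sorting method and no slide held both lines, so line and slide cannot be told apart.

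Among the members most earlier in K562, the largest difference was at IPO11. IPO11, an importin gene at chr5:61750001-62000000, read 1.62 and 1.12 in K562 and -1.50, -1.06, -1.29 and -1.05 in U2OS. The difference was 2.60 ± 0.24 (SE; limma adjusted p = 0.000589). MIPOL1, at chr14:37750001-38000000, read 0.94 and 0.74 in K562 and -1.08, -1.61, -2.20 and -2.09 in U2OS (difference 2.58 ± 0.34, SE; limma adjusted p = 0.00181). In both, every K562 array was above 0 and every U2OS array below it. The others were the windows of DTWD2 with DMXL1 (2.49), ODZ4 with NARS2, the mitochondrial asparaginyl-tRNA synthetase (2.46), TMEM64 (2.44) and C6orf103 (2.44), each with K562 above 0 and U2OS below 0 on every array.

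Among the members most later in K562 were windows of an integrin gene and of a myosin gene. The window of RBMS1 and ITGB6, an RNA-binding protein and an integrin of epithelia, at chr2:161000001-161250000, read -3.47 and -2.29 in K562 and 0.97, 1.28, 0.66 and 0.71 in U2OS (difference -3.78 ± 0.36, SE; limma adjusted p = 0.000628). The window of PHLDB2, a protein that ties microtubules to the cell cortex, at chr3:111500001-111750000, read -2.72 and -1.74 in K562 and 1.95, 1.64, 1.22 and 1.32 in U2OS (difference -3.76 ± 0.34, SE; limma adjusted p = 0.000552). Here the lines lay on opposite sides of 0 on all 6 arrays. The adjacent window, with PLCXD2, differed by -3.42 and was counted with PHLDB2 as 1 region. DDX60, an antiviral RNA helicase gene beside ANXA10, differed by -3.57, MYO10, the filopodial myosin, by -3.09 and GPR126, an adhesion receptor, by -3.06. A window on chromosome 5 that names only transcript identifiers (chr5:33000001-33250000) differed by -3.09.

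**Figure D5:**
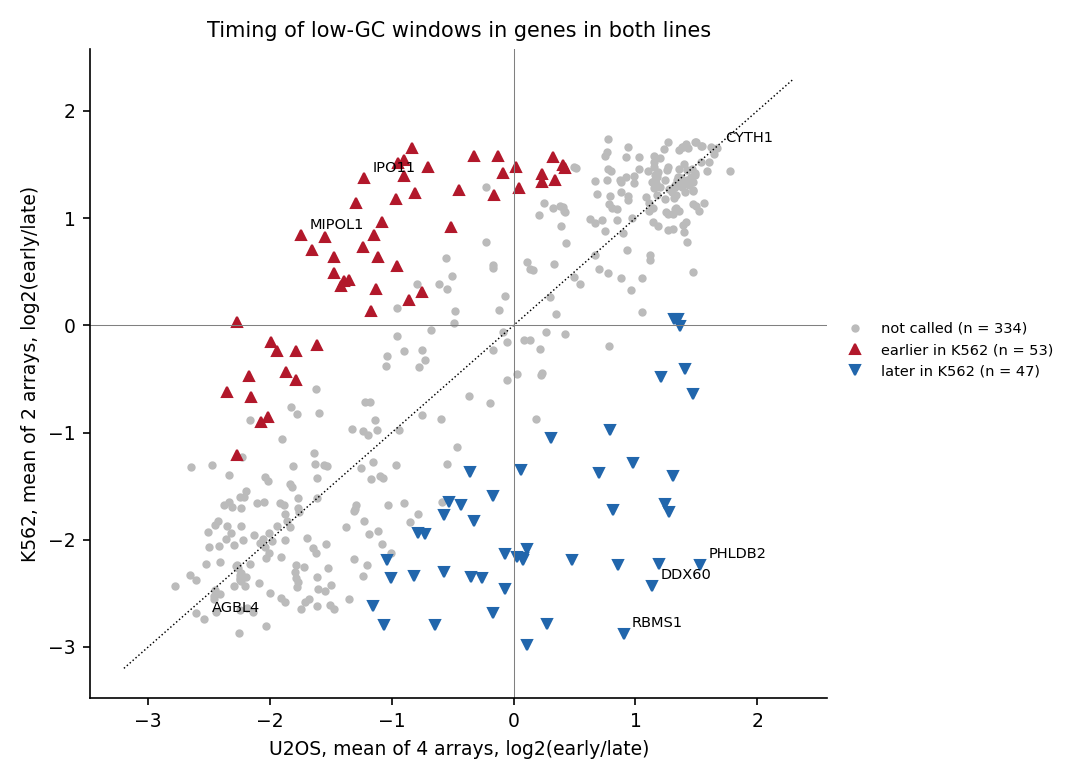
Each point is a low-GC window inside genes, by its log2(early/late) in U2OS (x axis, mean of 4 arrays) and K562 (y axis, mean of 2 arrays); triangles mark windows called by limma (difference of 1 or more, adjusted p under 0.05) and the dotted line is equality. Grey points fill the late and the early corner, 53 windows lie above the line as earlier in K562 and 47 below it as later, with RBMS1 and PHLDB2 farthest from it.

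Between the U2OS handlings, 111 of 434 members (25.6%) passed limma at an adjusted p under 0.05, against 21.7% of all windows. Of these, 91 were later on the automated arrays (21.0%, against 16.2% of all windows) and 20 earlier (4.61%, against 5.52%). The median difference, automated minus manual, was -0.28 over members and -0.17 over all windows. Leaving out the first automated array left 12 members called (2.76%, background 3.84%) and leaving out the second left 29 (6.68%, background 6.02%); the automated group is then a single array, assumed to vary like the manual pair. With normexp correction 289 members (66.6%, background 73.6%) were called, of which 29.8% were earlier on the automated arrays, against 18.02% in the fit above. Loess within arrays gave 29.3%, and without dim probes 188 of 352 members (53.41%, background 49.04%) were called, 0 of them earlier on the automated arrays. Both manual arrays shared a slide and each automated array had its own, so handling and slide cannot be told apart, and the automated arrays were also the brightest.

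At the edges of the rule, the 12 members tied at the GC limit (35.6%) had medians of -1.34 in K562 and -0.75 in U2OS and ranged from -2.81 to 1.71 in K562. The 5 genic windows just above it had medians of 1.08 and 1.12. The 18 members at exactly 80% of gene-naming probes had medians of 0.86 and 0.14, and the only low-GC window just below, at 79.2%, read -1.88 and -1.29.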

How the data were processed

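Per the file headers, the deposited log10 ratio (late Cy5 over early Cy3) and the spot intensity columns were written by the authors with Agilent Feature Extraction 11.5.1.1; the submitters' processing notes name version 9.1. Per the file headers, its signals were background-subtracted and dye-normalized, and positions are on hg19. All arrays carried the same dye orientation, so dye effects cannot be told apart from timing. The intensity columns served only the background alternatives.

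The log10 ratio was turned to log2(early/late) and centred on each array's median autosomal probe. Control, saturated, non-uniform and manually flagged spots were dropped and repeated probes averaged. A window's value is the mean of its probes (at least 3 measured). The array labelled 44k has 62976 features, the other 6 have 180880; it entered only 1 alternative. Gene names are those of the array: of 1369 names in members, 928 matched RefSeq.

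Contrasts of class medians were tested per array by an exact two-sided sign-flip test. Windows were tested with limma 3.58.1 in R 4.3.3 (lmFit, eBayes, Benjamini-Hochberg over all 9064 windows), which was tested on simulated data. There 200 windows were shifted by 1.5. The fit between the lines recovered 44% of them with 8 false calls, so many shifts of that size are missed. The fit between handlings recovered 75.5% with 5 false calls. Other steps used Python 3.11.15. Same-numbered U2OS arrays did not deviate together (correlation of deviations -0.06), so numbers were not taken as pairs. A random slide block could not be estimated with 6 arrays on 5 slides.

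Named windows were the 5 earliest and 5 latest members by the mean of both lines, up to 6 members per direction between the lines with the largest difference among called windows without overlap (adjacent windows as 1 region), the 2 earliest and 2 latest per gene list, and the BMP1 and DPPA2 windows. ATM and RB1 were named after their values were seen. Members and lists were chosen with earlier results of these data known. Alternatives were the background correction, loess, dim probes, probe GC slope, window size, GC and gene limits, scaling, the block and each array left out.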

Additional observations from a re-analysis of the deposited data

Results flagged for a closer look

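In the window of DTWD2 and DMXL1 on chromosome 5, the second manual U2OS array read -0.56, apart from the other 3 U2OS arrays, which reached down to -0.96 (gap 0.84 of the range). The U2OS arrays still all lay below 0 and both K562 arrays above it. Over 28 groups tested in this way, chance alone would mark about 1 in 20.

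The contrast of middle-GC with low-GC windows inside genes took opposite signs by handling in U2OS: -0.06 on average on the manual and 0.16 on the automated arrays, a difference of 0.22. The difference was not tested, and handling and slide cannot be told apart.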

How the results depend on the processing

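The gene contrast at low GC kept its sign and its side of the threshold in 19 of 19 alternatives that used every array (0.59 to 1.74), the gene contrast at middle GC in 14 of 14 (0.47 to 1.80) and the single-gene contrast in 15 of 15 (-2.82 to -1.05). The GC contrast inside genes did not. It was -0.30 with fully genic windows (arrays -0.62 to -0.15) and -0.24 with RefSeq-matched names (arrays -0.41 to -0.10). Both passed the threshold (exact sign-flip p = 0.03125), with middle-GC windows later. The contrast was 0.31 in 500-kb windows, 1.36 against the highest 10% of GC and 0.012 without the old-sorting K562 array. Outside genes it was no longer past the threshold under 3 settings: it was 0.058 in 500-kb windows, 0.11 with RefSeq-matched names and 0.65 against the highest 10% of GC, where the GC contrast inside genes minus the gene contrast was -0.20. With 5 arrays no exact test can fall below 0.0625. Leaving out each array gave 1.38 to 1.67 for the gene contrast at low GC, 1.04 to 1.34 at middle GC, -0.089 to 0.012 for GC inside genes, 0.29 to 0.34 for GC outside genes, -1.66 to -1.40 for GC minus gene and -2.48 to -2.21 for single-gene members. Members called between the lines were 11.75% with normexp, 7.37% with no background correction, 13.65% without dim probes and 18.2% to 36.87% with an array left out. Members called between the U2OS handlings were 66.59%, 61.29% and 53.41% under those settings, 9.95% in 100-kb windows and 2.76% to 36.41% with an array left out. The replicate block on the shared U2OS numbers, which do not pair the arrays, gave 135 members (31.1%, against 26.5% of all windows). RefSeq-matched names, the highest GC and the omission of chromosome 19 were added after seeing the data. Signal over background limits the sizes: the gene contrast at low GC was 0.59 with no background correction, against 1.55.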
